A study of Oryza sativa Japonica Group with 8 samples.

Results

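PORA and PORB are the annotated rice genes of protochlorophyllide oxidoreductase, and they were followed across 4 groups of seedlings. They were chosen by annotation, as every probe set whose gene has PORA or PORB as a symbol or synonym. This gave 2 probe sets for 2 genes, of 57258 probe sets tested and 17905 genes with a probe set. PORA (LOC4337415) and PORB (LOC4349004) have 1 probe set each, and the name of the PORB set ends in x_at. By the array's naming, that ending marks a set in which some probes may also bind related transcripts, so a share of another transcript in the PORB signal cannot be told apart.

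Protochlorophyllide oxidoreductase converts protochlorophyllide to chlorophyllide, the step of chlorophyll synthesis that in flowering plants needs light. In a dark-grown shoot the enzyme builds up with its pigment and NADPH in the prolamellar body of the etioplast, from which greening starts on illumination. In many flowering plants one form, called PORA, is abundant in darkness and its messenger falls in light, while a form called PORB goes on being made during greening. Phytochromes, the red light receptors, control POR messenger levels, and phytochrome B is the receptor altered in this study.

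RNA came from shoots of rice seedlings at 5 days, cultivar Nipponbare in every group, grown at 28 °C on MS medium. The 4 groups had 2 arrays each. Ubi::OsYHB/Nip seedlings were kept under constant red light (Rc50, an irradiance of 50 µmol m-2 s-1) or in darkness, and wild-type (WT) seedlings likewise in red light or in darkness. OsYHB is the Y283H form of rice phytochrome B, constitutively active per the study's title, and the maize Ubiquitin promoter drives it. Line 1, which overexpresses the gene 41-fold by the design text, gave replicate 1 of each OsYHB group, and line 9, at 23-fold, gave replicate 2, so replicate and line cannot be told apart. Each array holds RNA of whole shoots, in which fewer cells of a type and less RNA per cell cannot be told apart.

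The deposited values are intensities on a linear scale, and their median per array lay between 20.4 and 20.9. Replicate arrays correlated across probe sets at 0.992 to 0.996 on the log2 scale. One of 64 reporter probe sets on the array read 7669 to 9834 in the 4 OsYHB arrays and 7.2 to 8.1 in the 4 WT arrays, so it separates the arrays as the genotype labels do. The other 63 reporter sets lay between 2.8 and 42.8 on all arrays, which gives a level for probe sets with no target. The probe set of PHYB, the gene behind the transgene, read 794 to 1051 in the OsYHB arrays and 911 to 1334 in the WT arrays and was not called in any comparison. Where its probes lie in the transcript is not given, so it checks nothing. Of the 5 leaf markers RBCS was the brightest at 11461 to 15926 and GLO1 the dimmest at 591 to 3867. Of the 5 root markers LSI2 and CASP1 were at 4.5 to 16.2, IRT1 at 49.4 to 64.6 and NAAT1 at 15.3 to 338. The silicon transporter gene LSI1, also a root marker, was at 472 to 943. In WT darkness GLO1 at 591 to 700 and LSI1 at 655 to 943 overlapped.

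PORA was brightest in WT darkness and dimmest in OsYHB seedlings in red light, with the remaining groups between them. Its intensities were 1485 and 1664 in OsYHB red light, 3132 and 3686 in OsYHB darkness, 2694 and 3467 in WT red light, and 6625 and 6965 in WT darkness. The WT dark arrays were above all others and the OsYHB red light arrays below all others, while WT red light and OsYHB darkness overlapped. On the log2 scale the means were 10.62 ± 0.12 in OsYHB red light, 11.73 ± 0.17 in OsYHB darkness, 11.58 ± 0.26 in WT red light and 12.73 ± 0.05 in WT darkness (SD, n = 2 each). PORA was among the bright probe sets on every array, between the 96.1 and the 99.7 percentile.

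PORB was dimmest in WT darkness and close to level in the other groups. It read 3667 and 3614 in OsYHB red light, 3339 and 3460 in OsYHB darkness, 3544 and 3530 in WT red light, and 1648 and 2294 in WT darkness. The 6 arrays outside WT darkness spanned 3339 to 3667 and did not overlap with the WT dark arrays. The log2 means were 11.83 ± 0.01 in OsYHB red light, 11.73 ± 0.04 in OsYHB darkness, 11.79 ± 0.00 in WT red light and 10.92 ± 0.34 in WT darkness (SD, n = 2 each). The gap between the WT dark replicates was the widest of the 4 groups for this gene.

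**Figure D1:**
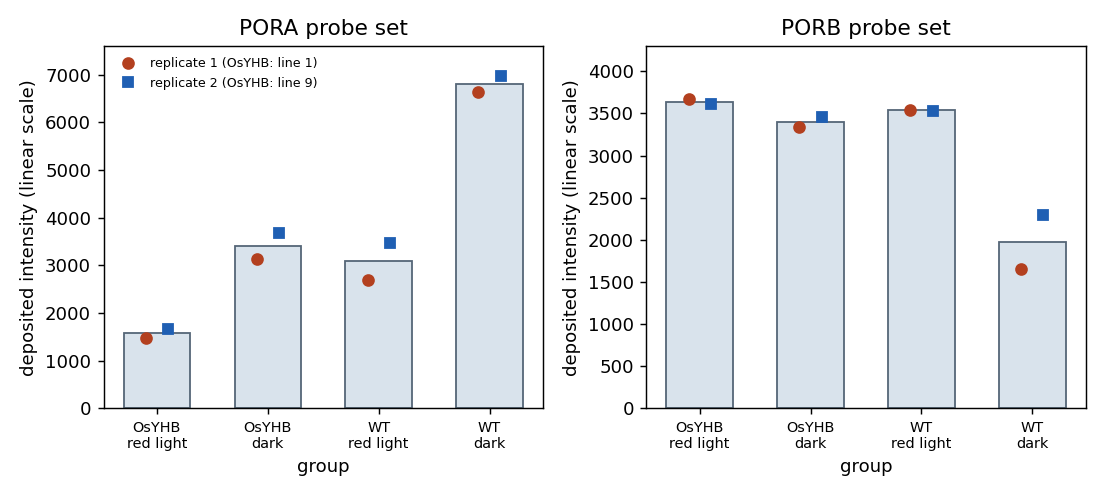
Deposited intensity (linear scale, y axes starting at 0) of the PORA and PORB probe sets in the 4 groups, with bars for group means and points for the 2 arrays of each group. PORA is at 6625 and 6965 in WT darkness and at 1485 and 1664 in OsYHB red light, and PORB is at 1648 and 2294 in WT darkness and at 3339 or more in the other groups.

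In wild-type seedlings PORA was lower and PORB higher in red light than in darkness. The log2 change of PORA was -1.15 (SE 0.16; adjusted p = 0.00263 in limma), to 0.45 times its dark level with a 95% interval of 0.351 to 0.576. PORB changed by 0.86 (SE 0.16, limma adjusted p = 0.0112), to 1.82 times its dark level, with a 95% interval of 1.42 to 2.34. For PORB this SE rests on 1 spread estimate over all 4 groups, although its replicates differed most in WT darkness (log2 SD 0.34). In this comparison 9.73% of all probe sets were called at an adjusted p below 0.05, 4.59% as lower and 5.14% as higher. PORB lost its call when only the arrays of both WT groups were fitted (limma adjusted p = 0.0589) and without WT red light replicate 1 (0.0754) or replicate 2 (0.0789). Without WT dark replicate 1 or 2 the PORB change was 0.62 or 1.10, and PORA kept its call in all 14 alternatives.

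In darkness, OsYHB seedlings had less PORA signal and more PORB signal than wild type. PORA changed by -1.0 (SE 0.16, limma adjusted p = 0.00408), to 0.50 times the WT dark level, with a 95% interval of 0.391 to 0.641. PORB changed by 0.81 (SE 0.16, limma adjusted p = 0.0113), to 1.75 times the WT dark level, with a 95% interval of 1.36 to 2.25. Its SE again rests on the spread of all 4 groups, and the log2 SD in WT darkness was 0.34. The background here was larger, with 17% of probe sets called, 9.27% as lower and 7.69% as higher. PORB lost its call on the arrays of both dark groups alone (limma adjusted p = 0.0578) and without OsYHB dark replicate 1 (0.0508) or replicate 2 (0.0756). The comparison shares its WT dark arrays with that of red light in wild type, so the values of both are side by side here and are not independent.

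OsYHB seedlings in darkness and wild-type seedlings in red light were not told apart by either gene. PORA differed by 0.15 (95% interval -0.20 to 0.51, limma adjusted p = 0.653) and PORB by -0.06 (95% interval -0.42 to 0.30, limma adjusted p = 0.887). These intervals allow a PORA ratio of 0.868 to 1.42 and a PORB ratio of 0.748 to 1.23. Of all probe sets, 0.194% were called in this comparison.

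Within OsYHB seedlings, PORA had a lower signal in red light than in darkness in both lines, and the size was like that in wild type, but the change did not pass the test over all probe sets. Line 1 read 1485 in red light and 3132 in darkness, and line 9 read 1664 in red light and 3686 in darkness. The log2 difference was -1.11 (SE 0.16, limma adjusted p = 0.0815, unadjusted p = 8.26e-05, 95% interval -1.47 to -0.76). Only 6 probe sets, or 0.0105%, were called in this comparison, and PORA had the 58th smallest p of 57258. A total of 148 probe sets, or 0.258%, fell as far or farther. With an intensity trend in the variance model PORA was called (limma adjusted p = 0.0464), and without OsYHB dark replicate 2 the adjusted p was 0.374. PORB differed by 0.10 in the same comparison (95% interval -0.26 to 0.46, limma adjusted p = 0.815).

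In red light, OsYHB seedlings had a lower PORA signal than wild type on both arrays, which also did not pass the test. The log2 difference was -0.96 (SE 0.16, limma adjusted p = 0.21, unadjusted p = 0.000235, 95% interval -1.32 to -0.60). This was the 64th smallest p, where 11 probe sets, or 0.0192%, were called. Without WT red light replicate 2 the difference was -0.78 (limma adjusted p = 0.98). PORB differed by 0.04 (95% interval -0.32 to 0.40, limma adjusted p = 0.961), so a PORB ratio between 0.801 and 1.32 is not excluded by this fit. The fit has 1 spread estimate over all 4 groups. The log2 SD of PORB was 0.01 in OsYHB red light and 0.00 in WT red light, but 0.34 in WT darkness, a group outside this comparison.

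**Figure D2:**
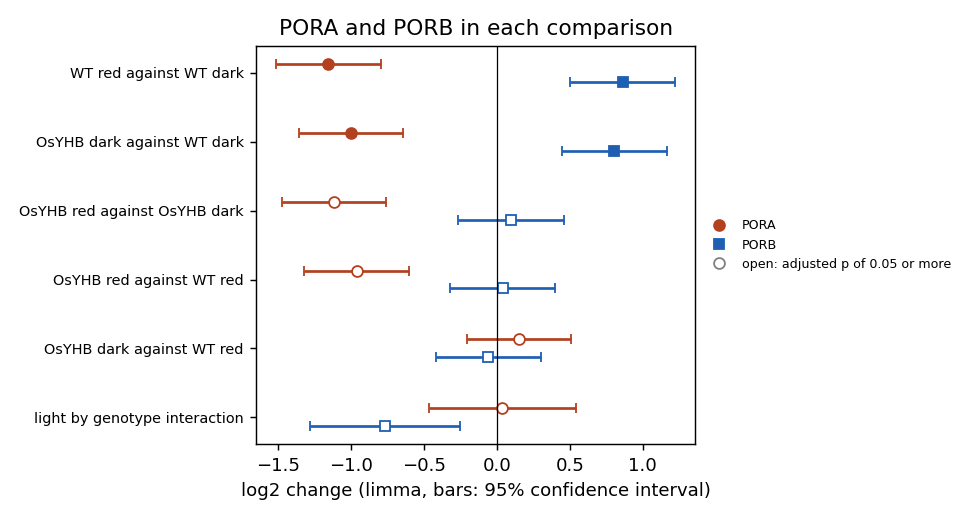
Log2 change of PORA and PORB in the 5 pairwise comparisons and the light by genotype interaction, with 95% confidence intervals as bars and filled symbols where the limma adjusted p was below 0.05. PORA lies between -1.15 and -0.96 in 4 comparisons, and PORB lies above 0 by 0.81 and 0.86 only where WT darkness is the comparator.

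A test of the interaction asked whether the response to red light differed between genotypes, as OsYHB minus WT. For PORA the responses were -1.11 in OsYHB and -1.15 in wild type, and the interaction was 0.04 (SE 0.22, 95% interval -0.46 to 0.54, limma adjusted p = 0.945). For PORB the responses were 0.10 in OsYHB and 0.86 in wild type, with an interaction of -0.76 (SE 0.22, 95% interval -1.28 to -0.25, limma adjusted p = 0.104, unadjusted p = 0.00853). Neither gene was called, where 4.22% of probe sets were, 1.53% with a positive and 2.68% with a negative interaction. PORB was called without WT dark replicate 2 (-1.0, limma adjusted p = 0.0157).

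Probe sets that fell in wild-type red light mostly had little change with red light in OsYHB seedlings, comparisons that share no arrays. The 2626 probe sets called lower in wild type had a median change of -0.78 there and of -0.08 in OsYHB, and 45 of them, or 1.71%, fell in OsYHB at least as far as PORA did. The 2944 called higher had a median of 1.02 in wild type and of 0.01 in OsYHB, and 1164 of these, or 39.5%, were at least as high in OsYHB as PORB at 0.10. Over all 57258 probe sets, 0.258% fell in OsYHB at least as far as PORA, and 29.8% were at least as high as PORB. These counts are descriptions of the arrays.

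Within each array, log2 PORA minus log2 PORB shows how unequally the genes changed, although its zero has no meaning because probe sets differ in brightness. It was -1.30 and -1.12 in OsYHB red light, -0.09 and 0.09 in OsYHB darkness, -0.40 and -0.03 in WT red light, and 2.01 and 1.60 in WT darkness. The group means were -1.21 in OsYHB red light, 0.00 in OsYHB darkness, -0.21 in WT red light and 1.80 in WT darkness. WT darkness and OsYHB red light stood at the ends with no overlap with other groups, and OsYHB darkness and WT red light overlapped. Over the 8 arrays PORA and PORB had a Pearson correlation of -0.806, which rests on 4 group levels.

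The transgenic lines did not differ beyond the spread in either gene. Line 1 minus line 9 was -0.24 in darkness and -0.16 in red light for PORA, and -0.05 and 0.02 for PORB. Averaged over light, PORA differed by -0.20 (SE 0.13, 95% interval -0.52 to 0.12, limma adjusted p = 1.00) and PORB by -0.02 (SE 0.15, 95% interval -0.38 to 0.35, limma adjusted p = 1.00). In this comparison 0.0734% of probe sets were called. The WT replicates differ in no line. Their replicate 1 minus replicate 2 was -0.07 in darkness and -0.36 in red light for PORA, and -0.48 and 0.01 for PORB.

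Of 23 planned chlorophyll synthesis genes 13 had a probe set under their name, and PORA was the only one of these called lower in any comparison of red light or OsYHB with WT darkness. In wild-type red light 8 of 13 were called higher and 1 lower, next to 5.14% and 4.59% of all probe sets. Their median log2 change was 0.68, against -0.04 over all probe sets. In OsYHB darkness against WT darkness 8 of 13 were called higher and 1 lower, next to 7.69% and 9.27% of all probe sets. The median there was 0.78, against 0.01 over all probe sets. In OsYHB red light 0 of the 13 were called by limma against OsYHB darkness, next to 0.0105% of all probe sets. An unadjusted p below 0.05 was found for 2 (PORA and CHLI), next to 14.6% of all probe sets. Against WT red light 0 of the 13 were called, next to 0.0192% of all probe sets. There 4 had an unadjusted p below 0.05 (PORA, CAO, CHLI and CHLH), next to 7.6% of all probe sets. PORA had the smallest p of the 13 in both.

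The first enzymes of the pathway make the tetrapyrrole ring. GluTR, which encodes glutamyl-tRNA reductase, the regulated entry step, read 3752 to 4755 in the other 3 groups and 1498 to 1911 in WT darkness. It was higher by 1.44 in WT red light and by 1.22 in OsYHB darkness (limma adjusted p = 0.000556 and 0.00104). The genes GSA, HEMB and HEMD of the steps after it were not called, with changes of 0.32, 0.38 and 0.18 in WT red light and of 0.42, 0.37 and 0.13 in OsYHB darkness. PPO, for the protoporphyrinogen oxidase before the branch to heme and chlorophyll, was higher by 0.68 and 0.62 in the same comparisons (limma adjusted p = 0.0225 and 0.0229), calls that were lost in 4 of 14 alternatives each.

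Magnesium chelatase starts the chlorophyll branch. The gene of its large subunit, CHLH, had an intensity of 3173 to 3465 in OsYHB red light, 2370 to 3285 in OsYHB darkness, 4342 to 4451 in WT red light and 894 to 1104 in WT darkness. CHLH was higher by 2.15 in WT red light and by 1.49 in OsYHB darkness (limma adjusted p = 0.000224 and 0.00109). A second, dimmer CHLH probe set had changes of -0.42 in both and was not called. CHLI was higher by 1.45 and 1.19, but at 17.4 to 74.9 its probe set was near the level of probe sets with no target. CHLD was higher by 0.57 and 0.78 (limma adjusted p = 0.0277 and 0.00558), and in WT red light its call was lost in 4 of 14 alternatives.

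Downstream of protochlorophyllide oxidoreductase, the calls were again all higher. CHLG, the gene of the chlorophyll synthase that attaches the phytol tail, changed by 0.44 in both comparisons and was not called. CHLP, for the geranylgeranyl reductase that supplies that tail, was higher by 0.95 in WT red light and 0.78 in OsYHB darkness (limma adjusted p = 0.00193 and 0.0039). The gene listed as both CAO and Lls1, names of different oxygenases, was higher by 2.07 and 1.24 (limma adjusted p = 0.000105 and 0.00101). Its enzyme is therefore not settled by the annotation.

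**Figure D3:**
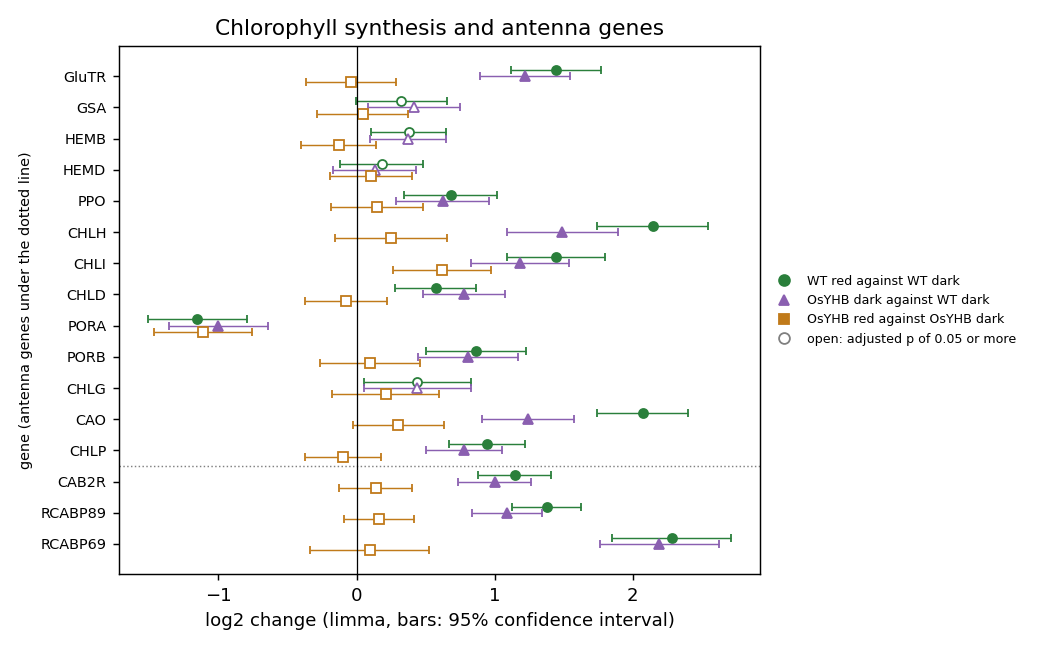
Log2 change, with 95% confidence intervals, of 13 chlorophyll synthesis genes and 3 antenna genes in red light against darkness in WT, OsYHB against WT in darkness, and red light against darkness in OsYHB. PORA is the gene to the left of 0 in all 3 comparisons, with changes of -1.15, -1.0 and -1.11, and the filled symbols of the other genes lie to the right.

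Genes of chlorophyll-binding antenna proteins, which take up the finished pigment, rose together with PORB. All 3 measured were called higher in WT red light, CAB2R by 1.15, RCABP89 by 1.38 and RCABP69 by 2.28, and in OsYHB darkness, by 1.00, 1.09 and 2.19. Of 5 leaf markers 4 were called higher in WT red light (GLO1, LFNR1, RCA and RCABP69) and 5 in OsYHB darkness, RBCS being the other (its call was lost in 6 of 14 alternatives). Their summed intensity was 40422 to 41828 in OsYHB red light, 43352 to 45804 in OsYHB darkness, 39214 to 39647 in WT red light and 18805 to 20316 in WT darkness. The 5 root markers summed to 623 to 637 in OsYHB red light, 695 to 791 in OsYHB darkness, 792 to 919 in WT red light and 737 to 1060 in WT darkness. LSI1 made up most of that sum, while NAAT1 was the root marker called, with 82.6 and 94.5 in OsYHB red light, 49 and 67.2 in OsYHB darkness, 220 and 338 in WT red light, and 26.9 and 15.3 in WT darkness. It was higher than in WT darkness by 3.75 in WT red light and by 1.50 in OsYHB darkness (limma adjusted p = 0.000198 and 0.0122, the second lost without OsYHB dark replicate 2), and LSI1 differed by -0.65 and -0.38 without a call. The 6 seed storage markers summed to 304 to 315 in OsYHB red light, 385 to 438 in OsYHB darkness, 295 to 350 in WT red light and 263 to 355 in WT darkness. GLUA2, at 204 to 374, made up most of the seed sum. The other seed markers lay within the range of probe sets with no target. RCABP69 stands in both the leaf marker and the antenna list. Over all probe sets, 5.14% were called higher in WT red light and 7.69% in OsYHB darkness, each against WT darkness. As 4 of the 5 leaf markers themselves changed with red light in WT, leaf content and light response cannot be told apart by them. The part of the leaf marker difference in the PORA and PORB values was not tested.

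Of 22 planned entries for light receptors and regulators, 16 had no probe set under their name, among them the PIF-like factors, HY5, COP1 and the cryptochromes. The other entries gave 7 genes. PHYA, the gene of the phytochrome that is most abundant in darkness, read 1084 and 1123 in OsYHB red light, 1220 and 1146 in OsYHB darkness, 1373 and 1421 in WT red light, and 3546 and 2858 in WT darkness. Its log2 change was -1.19 in WT red light and -1.43 in OsYHB darkness (limma adjusted p = 0.000989 and 0.00033), next to -1.15 and -1.0 for PORA. In OsYHB, however, PHYA changed by -0.10 with red light (limma adjusted p = 0.772), and its interaction of 1.09 was called (limma adjusted p = 0.0173), unlike that of PORA. The size of the PHYA interaction was not tested against that of PORA.

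GLK1 and GLK2, the genes of GARP factors known to act on chloroplast genes, were higher by 1.18 and 0.67 in WT red light (limma adjusted p = 0.00354 and 0.0167), where the GLK2 call was lost in 4 of 14 alternatives. The next brightest GLK2 probe set changed by 0.49 there without a call (limma adjusted p = 0.0967), while dimmer ones were called at 0.70 and 0.68. In OsYHB darkness GLK1 was higher by 0.62 (limma adjusted p = 0.0394), a call lost in 8 of 14 alternatives, and GLK2 differed by 0.22 (limma adjusted p = 0.303). EIL1A and EIL1B, for EIN3-like factors that in Arabidopsis act on POR genes, were not called, with -0.10 and -0.15 in WT red light and -0.33 and -0.98 in OsYHB darkness. The heme oxygenase genes HO1, which in rice is needed for the phytochrome chromophore, and HO2 were not called either, at 0.15 and -0.27 in WT red light and 0.10 and 0.29 in OsYHB darkness.

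A comparison of patterns over the 8 arrays covered 380 named genes with an SD of at least 0.5 on the log2 scale, and gives descriptions without a test. The genes most like PORA were OsC3H60, also named U2AF35A for a splicing factor subunit (r = 0.979), BG1 (0.966), the malic enzyme gene ME6 (0.965), the phosphatase gene OsPP2C30 (0.955) and the apyrase gene ADPase (0.955). OsC3H60 had log2 means of 7.81 in OsYHB red light, 9.18 in OsYHB darkness, 8.86 in WT red light and 9.96 in WT darkness, with the same order of group means as PORA. At the other end were CHL9, which is CHLI (-0.942), the starch synthase gene SS2 (-0.925), the allantoinase gene ALN (-0.921), DTH7, also named PRR37 (-0.91), and PSK4 (-0.899).

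The genes most like PORB were RCABP69 (0.986), LPR2 (0.978), the clock gene OsPCL1 (0.975), the thioredoxin gene OsTrx03 (0.974) and the protease gene FTSH1 (0.974). Those least like it were ASMT (-0.987), the homeobox gene HOS9 (-0.987), G1L1 (-0.984), the aluminium transporter gene Nrat1 (-0.98) and the peroxygenase gene PXG (-0.979). HOS9 had a log2 mean of 3.49 in OsYHB red light, 3.35 in OsYHB darkness, 3.62 in WT red light and 7.59 in WT darkness, the reverse of the single low group of PORB. The group means of HOS9 and G1L1 outside WT darkness, and all 4 group means of ASMT and Nrat1, lay within the range of probe sets with no target. The 8 arrays hold 4 groups, so a high correlation can follow from the WT dark arrays alone.

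**Figure D4:**
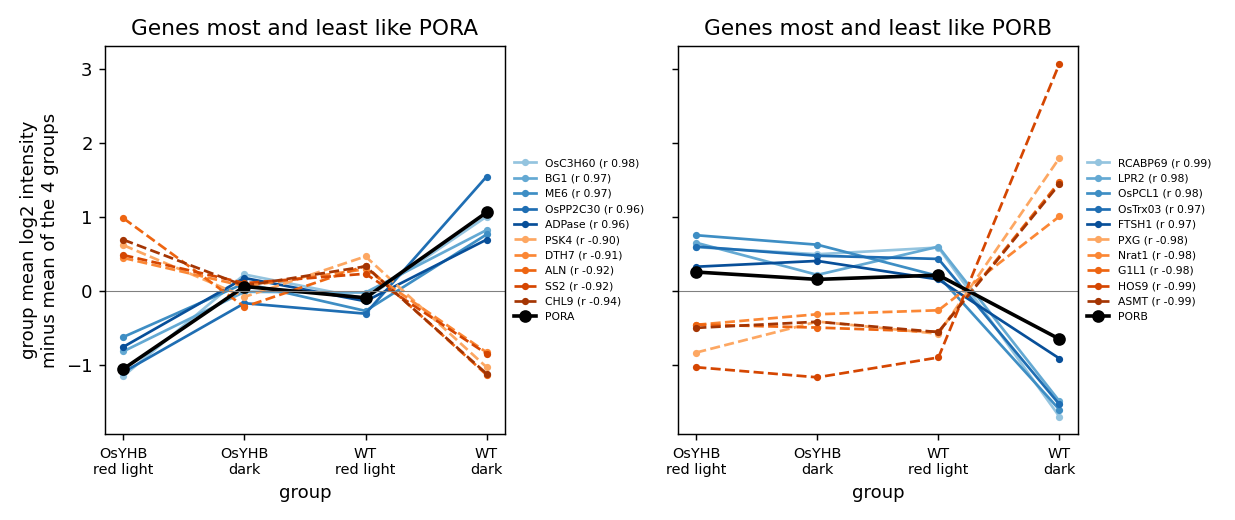
Group mean log2 intensity, minus the mean of the 4 groups, for PORA (left, black) and PORB (right, black), with the 5 named genes of highest (solid) and lowest (dashed) Pearson correlation over the 8 arrays. PORA and the genes like it have a high WT dark, 2 intermediate and a low OsYHB red light group, whereas PORB and the genes like it are apart in WT darkness only.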

How the data were processed

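Above-ground tissue of rice seedlings was profiled on 8 Affymetrix 3' expression arrays, 2 in each of 4 groups. Values in the deposited table are linear intensities, 1 for each probe set on each array. RMA, GCOS and limma are named in the submitters' processing notes, without their roles or versions. The labels call the arrays of a group biological replicates. After 123 control probe sets were left out, 57258 deposited intensities per array were converted to log2 and fitted with limma 3.58.1 (R 4.3.3), as 4 group means over all 8 arrays without a trend (degrees of freedom: 4 residual, 4.27 prior). All p-values are two-sided, with Benjamini-Hochberg adjustment over all probe sets of a comparison, and a call needed an adjusted p below 0.05. The line comparison added a line term in OsYHB and a replicate term in WT. Code was tested on simulated data, and plots were drawn with matplotlib 3.10.9.

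Probe sets were named through GEO's platform annotation by gene ID and the RefSeq gene table, which gave 1 gene for 22436 of them. A gene was represented by its brightest probe set. Lists were matched by symbol or synonym. A trailing 1 was optional for PPO and CAO, and 2 homonyms (FC1 and BZIP1) were left out. Named were the members, genes of the chlorophyll, heme, regulator and antenna lists called in at least 1 of 6 comparisons or needed for a pathway step (marker genes have no such rule), and the 5 genes at each end of likeness. The members and lists were chosen with earlier results of these data known. Promoter and protein sequences were not analysed here.

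Alternatives were quantile normalization, median centring, brighter probe sets only, a variance trend, only the groups compared, a replicate block, probe sets averaged per gene, and each array left out in turn. The replicate number is the transgenic line in OsYHB and a number only in WT. The replicates' deviations from their group means correlated across probe sets between light conditions at 0.145 in OsYHB and at 0.093 in WT. Between groups of different genotype these correlations lay between -0.172 and 0.078. Values carry no detection call, so dim probe sets may lie at background, and precision is limited by the number of arrays.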

Additional observations from a re-analysis of the deposited data

Results flagged for a closer look

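These genes responded to red light differently in OsYHB and in wild type by the interaction test (limma, n = 2 arrays in each of 4 groups). Of all probe sets 4.22% were called in it, 2.68% with a negative and 1.53% with a positive interaction. Of 13 chlorophyll synthesis genes 4 were called. GluTR had an interaction of -1.48 (limma adjusted p = 0.00635), CHLH of -1.90 (0.00541), the gene named CAO of -1.77 (0.00322) and CHLP of -1.05 (0.0139). All 3 antenna genes were called, CAB2R with -1.01 (0.0139), RCABP89 with -1.21 (0.00501) and RCABP69 with -2.19 (0.00398). Of 7 receptor and regulator genes 1 was called, PHYA with 1.09 (0.0173). Of 5 leaf markers 4 were called, RCABP69, RCA with -1.34 (limma adjusted p = 0.00783), LFNR1 with -2.02 (0.0012) and GLO1 with -2.39 (0.00121). Of 5 root markers 1 was called, NAAT1 with -3.13 (limma adjusted p = 0.00617). In each case the red light response was smaller in OsYHB, as with RCABP69 at 0.10 in OsYHB and 2.28 in wild type. The calls of CHLP, PHYA, CAB2R and RCA were lost in 4, 5, 4 and 1 of 13 alternatives.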

How the results depend on the processing

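Of 176 alternative values for PORA and PORB, 168 kept their side of the threshold, and 0 reversed in direction where either fit had a call. Values without a call could change sign. Leaving out 1 array at a time gave -0.03 to 0.33 for PORA in OsYHB darkness against WT red light. For the PORA interaction it gave -0.14 to 0.22. Of 178 alternative counts of chlorophyll synthesis genes, 174 stayed within 1.5 times the reported count. Most of the reported counts were 0, and alternatives that stayed at 0 are among the 174, so this share says little about the other counts. PORA against WT darkness kept its call in 28 of 28. With an intensity trend PORA in OsYHB red light against OsYHB darkness (-1.11) was called, so 1 chlorophyll synthesis gene was lower there in place of 0. With only the arrays of the groups compared, PORB was not called in WT red light (0.86) or in OsYHB darkness against WT darkness (0.81), and 5 chlorophyll synthesis genes were higher in WT red light in place of 8. Leaving out 1 array at a time gave 0.62 to 1.10 for PORB in WT red light, 0.57 to 1.04 for PORB in OsYHB darkness, -1.0 to -0.53 for the PORB interaction, and 5 to 9 chlorophyll synthesis genes higher in WT red light, the lowest count without WT red light replicate 1 or 2. Where 1 array of a group was left, its spread was taken from the other groups. These fits hold fewer arrays, and the cause of the changes was not tested. With the replicate block, which pairs arrays by line only in OsYHB, PORA had an adjusted p = 0.00185 in WT red light, 0.00279 in OsYHB darkness and 0.0641 in OsYHB red light against darkness, and no call of PORA or PORB changed. The line comparison was not rerun without single arrays.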
